A study of Mus musculus with 6 samples.

Results

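Genes of pericytes and vascular smooth muscle, 10 in number, were followed in RNA from sorted cells of the mouse hippocampus. They were taken by symbol (Vtn, Pdgfrb, Rgs5, Higd1b, Notch3, Acta2, Tagln, Myl9, Myh11 and Des), and all 10 were among the 20323 genes with values. The 6 libraries, each described as made from 1 mouse brain, came from animals of the genotype Nestin-CreERT2;Rosa26-mGFP, in which an inducible Cre under the Nestin promoter switches on a membrane GFP, so that neural progenitors and their descendants are marked. Magnetic beads with anti-GFP were used to pull out the marked cells. Every animal received cuprizone, a copper chelator that damages oligodendrocytes and strips myelin, for 10 weeks, and then 4 weeks of recovery. The 3 controls were given the vehicle, 0.1% bovine serum albumin in saline. The 3 treated mice were given neuregulin 1 beta 1 (Nrg-1β1), a growth factor that activates ErbB receptors, at 60 µg/kg/day. The series description gives that dose in µg and the sample labels in g, so its unit is uncertain. The labels give neither age nor sex.

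Pericytes sit on capillaries within the basement membrane that they share with the endothelium, and smooth muscle cells ring the arterioles; together they are called mural cells. Endothelial PDGF-B recruits pericytes through the receptor encoded by Pdgfrb, and Notch3 carries signals from endothelial Notch ligands into mural cells. Smooth muscle builds its contractile apparatus from genes that serum response factor and its partner myocardin switch on through a DNA element called the CArG box. The labels name the sorted cells as neural progenitor cells, of which these genes are not the usual markers.

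The RefSeq promoter table (GRCm38.p6) held 6 of the 10 genes, and Pdgfrb, Tagln, Myh11 and Higd1b had no entry. Shown here are the 250 bases upstream of the start site of 3 of them. Acta2 and Myl9 are contractile genes with matches to the CArG box, and Vtn is the 1 gene that passed the test below. Capitals mark CArG boxes, which have 6 central A or T bases, and CArG-like matches, in which 1 of those 6 bases is another. The motif reads the same on both strands.
Myl9, chr2:156775214-156775463, plus strand: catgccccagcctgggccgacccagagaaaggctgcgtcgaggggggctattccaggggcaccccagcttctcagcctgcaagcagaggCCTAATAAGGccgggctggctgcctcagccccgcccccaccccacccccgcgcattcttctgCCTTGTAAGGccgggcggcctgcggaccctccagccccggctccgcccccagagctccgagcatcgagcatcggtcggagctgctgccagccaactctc
Acta2, chr19:34255374-34255623, minus strand: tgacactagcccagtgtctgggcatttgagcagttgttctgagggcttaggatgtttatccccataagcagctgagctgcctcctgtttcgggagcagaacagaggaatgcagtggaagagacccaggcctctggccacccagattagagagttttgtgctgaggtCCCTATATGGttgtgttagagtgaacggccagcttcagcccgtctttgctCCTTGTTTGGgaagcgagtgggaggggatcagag
Vtn, chr11:78498870-78499119, plus strand: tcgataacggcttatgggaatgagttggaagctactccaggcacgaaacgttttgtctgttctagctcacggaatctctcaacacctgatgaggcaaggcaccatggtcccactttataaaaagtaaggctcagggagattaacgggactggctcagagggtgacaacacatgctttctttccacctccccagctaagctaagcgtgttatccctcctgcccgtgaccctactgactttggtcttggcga
The Myl9 window held 1 CArG box, starting 161 bases before the start site, and 1 CArG-like match 99 bases before it. The Acta2 window held 2 CArG-like matches, 84 and 34 bases before its start. No match lay in the Vtn window or in those of Rgs5, Des and Notch3. Of 32851 promoter windows of this length in the table, 1.47% held a CArG box and 7.24% a CArG-like match. These matches describe the sequence and are not measured binding sites.

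Values below are log2(normalized count + 4) as deposited, with the whole reads that they stand for. A library without a read of a gene has a log2 value of 2.00. Depth went partly with the group. Vehicle libraries 1 and 3 held 72953034 and 47076006 reads, whereas vehicle library 2 held 1075813 and the Nrg-1β1 libraries 567073 to 1327003. One read was worth 0.0605 normalized counts in the deep libraries and 3.04 to 5.17 in the shallow ones. Sex-linked reads also set libraries apart. For Xist, vehicle libraries 1 to 3 gave 3255, 216 and 1045 reads and each Nrg-1β1 library 1 to 3. For the Y-linked Ddx3y they gave 82, 1 and 1994 against 15 to 29. These reads are not scaled for depth, so they are compared within a library. Vehicle libraries 1 and 2 held more reads of Xist than of Ddx3y, and each Nrg-1β1 library more of Ddx3y. Vehicle library 3, described as made from 1 mouse brain, held many reads of both, and the reason was not tested. Counts of calls without this library are given below. Sex-linked transcripts thus went partly with the group, and the part of sex in the differences was not tested.

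In Nrg-1β1 libraries 1 gene of the 10 was lower at an adjusted p of 0.05 (limma, Benjamini-Hochberg over all genes), and 0 were higher. Over all genes 0.625% were called lower and 0.438% higher. The gene was Vtn. At an unadjusted p of 0.05, 7 of the 10 lay under the threshold, all with lower values in Nrg-1β1, against 6.86% of all genes lower and 6.15% higher by that rule, and limma-voom on the recovered reads called 0. No gene of the whole table passed, 0 lower and 0 higher, once vehicle library 2 or any of the Nrg-1β1 libraries was removed, and without vehicle library 3 only 4 were lower and 0 higher; this limit holds for every call given here. The difference was negative for 9 genes and positive for Notch3. Its median over the 10 genes was -1.51 on the log2 scale, against 0.03 over all genes. All vehicle libraries lay above all Nrg-1β1 libraries for 4 of the 10 (Vtn, Tagln, Des and Myl9), against 10.4% of all genes, and the reverse held for 0 of the 10, against 7.37%. For Myl9 the separation rested on vehicle library 2 and Nrg-1β1 library 3, which held 5 reads each. In bulk RNA of this kind, fewer cells of a type and less RNA per cell cannot be told apart.

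**Figure D1:**
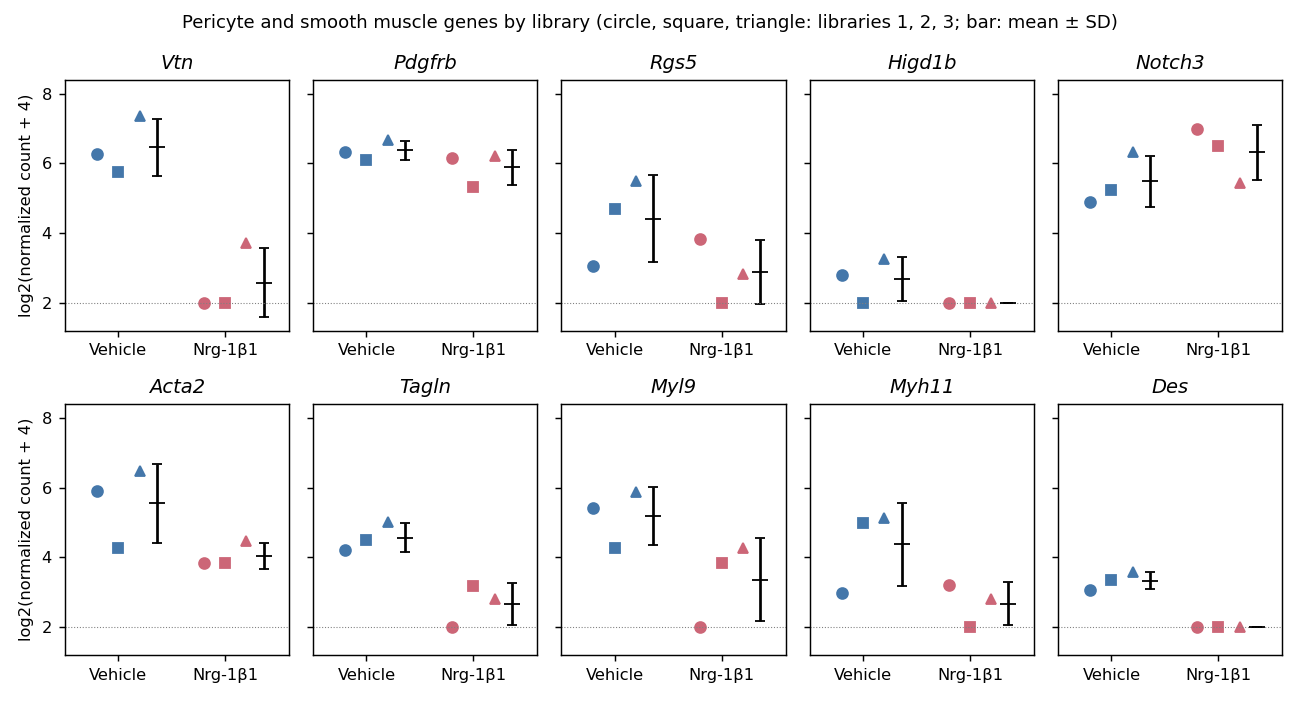
Log2(normalized count + 4) of the 10 genes in each library. Symbols are single libraries, bars are the mean ± SD of 3 libraries, and the dotted line at 2.00 is the value of a library with no read; Vtn separates the groups most, and Notch3 alone has its higher mean in Nrg-1β1.

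Vtn encodes vitronectin, an adhesive glycoprotein of plasma and extracellular matrix that binds integrins and that brain pericytes express strongly. Reads numbered 1215, 16 and 2640 for libraries 1 to 3 of vehicle, and 0, 0 and 3 for libraries 1 to 3 of Nrg-1β1; further values keep this order. On the log2 scale these were 6.28, 5.74 and 7.35 in vehicle and 2.00, 2.00 and 3.71 in Nrg-1β1. The groups did not overlap, and the lowest vehicle value came from the shallow library 2. The difference was -3.89 ± 0.58 (SE, adjusted p = 0.00356, limma). At the pooled vehicle level the Nrg-1β1 libraries would have held 83.3 reads in all, and 3 were found (95% exact Poisson interval 0.619 to 8.77). Against vehicle library 2 alone, which has a depth like theirs, the level in vehicle was 11.8 times that pooled over Nrg-1β1 (95% exact counting interval 3.39 to 63.4). Vtn stayed past the threshold without vehicle library 1 (adjusted p = 0.036, limma). It was lost without vehicle library 2 (0.226) or 3 (0.148) and without Nrg-1β1 library 1 (0.302), 2 (0.288) or 3 (0.102), with differences from -4.46 to -3.44 over these 6 fits.

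The other receptors and pericyte markers did not pass the test. Pdgfrb encodes the PDGF receptor beta that pericytes need for recruitment. Its log2 values were 6.33, 6.10 and 6.67 in vehicle (1266, 21 and 1620 reads) and 6.15, 5.31 and 6.21 in Nrg-1β1 (13, 7 and 23 reads). The groups overlapped, and Nrg-1β1 libraries 1 and 3 lay above vehicle library 2. The difference of -0.48 ± 0.36 (SE) did not pass (adjusted p = 0.638, limma). Where 62.6 reads would match the pooled vehicle level, 43 were found (95% exact Poisson interval 31.1 to 57.9).

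Notch3 encodes the Notch receptor of mural cells, mutated in the small vessel disease CADASIL, and neural stem cells also express it. Vehicle gave 427, 11 and 1248 reads and Nrg-1β1 gave 24, 17 and 13, that is, more reads in each Nrg-1β1 library than in vehicle library 2. The log2 values were 4.90, 5.25 and 6.31 in vehicle and 7.00, 6.51 and 5.44 in Nrg-1β1. The groups overlapped, because Nrg-1β1 library 3 lay below vehicle library 3. The difference of 0.83 ± 0.45 (SE) did not pass (adjusted p = 0.461, limma). It was 0.0037 when vehicle library 3 was set alone against the Nrg-1β1 libraries. Pooled reads put Nrg-1β1 at 1.49 times the vehicle level (95% exact counting interval 1.11 to 1.95), an interval that leaves out the spread between libraries.

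Rgs5 encodes a regulator of G protein signalling that marks pericytes. The reads were 70, 7 and 685 in vehicle, against 2, 0 and 1 in Nrg-1β1. Log2 values came to 3.04, 4.68 and 5.51 in vehicle and 3.84, 2.00 and 2.82 in Nrg-1β1. Vehicle library 1, although the deepest, lay below Nrg-1β1 library 1, so the groups overlapped. In Nrg-1β1 library 1 even 1 read was worth 5.17 normalized counts, more than the 4.24 of vehicle library 1. The difference was -1.52 ± 0.66 (SE, adjusted p = 0.319, limma). Pooled over libraries the vehicle level was 5.47 times that in Nrg-1β1, with a wide 95% exact counting interval of 1.86 to 26.6.

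Higd1b, a pericyte marker that encodes a small hypoxia-inducible domain protein, was read 49, 0 and 91 times in vehicle and 0 times in Nrg-1β1. Log2 values came to 2.80, 2.00 and 3.25 in vehicle and 2.00 throughout Nrg-1β1. Only 3.01 reads would be expected in Nrg-1β1 at the pooled vehicle level, and 0 reads allow up to 3.69 (95% exact Poisson interval). A decrease in Higd1b was therefore not detectable at this depth (-0.68 ± 0.41, SE, adjusted p = 0.521, limma).

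**Figure D2:**
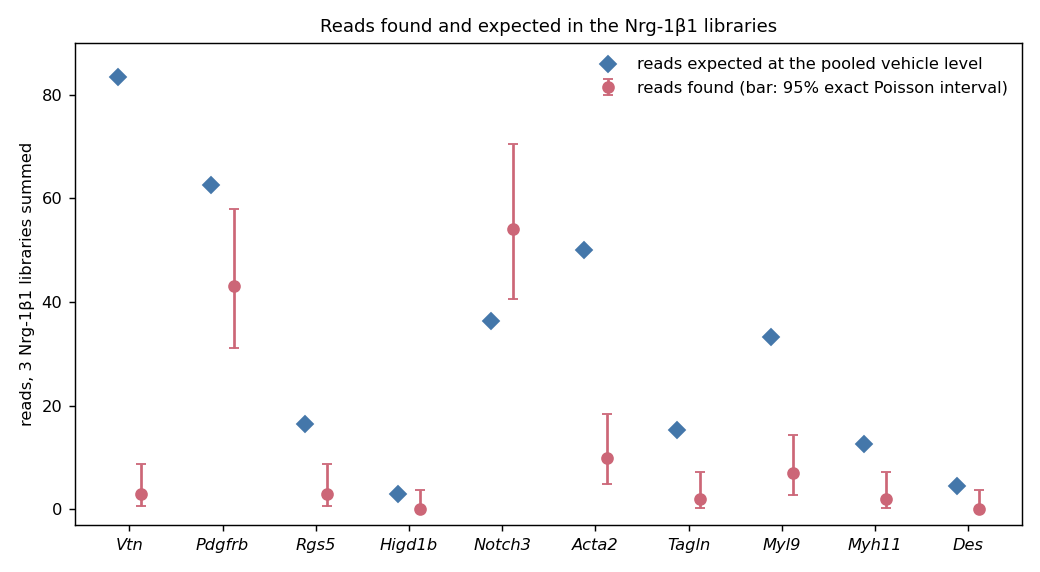
Reads of each gene summed over the 3 Nrg-1β1 libraries (circles, with 95% exact Poisson intervals) and the reads expected there at the pooled vehicle level (diamonds). Vtn shows 3 reads against 83.3 expected, Notch3 shows 54 against 36.3, and the interval of Higd1b includes its expectation.

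The contractile genes had lower means in Nrg-1β1, and 0 of the 5 passed the test. Acta2 encodes smooth muscle alpha-actin. Vehicle gave 920, 5 and 1403 reads, and Nrg-1β1 gave 2, 2 and 6. On the log2 scale these were 5.90, 4.28 and 6.47 in vehicle and 3.84, 3.83 and 4.47 in Nrg-1β1. The shallow vehicle library 2 lay below Nrg-1β1 library 3, so the groups overlapped. The difference was -1.50 ± 0.55 (SE, adjusted p = 0.216, limma). It was -0.23 when vehicle library 2 alone was set against the Nrg-1β1 libraries.

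Myl9, the regulatory light chain of smooth muscle myosin, was read 635, 5 and 905 times in vehicle and 0, 2 and 5 times in Nrg-1β1. Log2 values came to 5.41, 4.28 and 5.88 in vehicle and 2.00, 3.83 and 4.26 in Nrg-1β1. The groups were separated by a narrow margin, with vehicle library 2 just above Nrg-1β1 library 3. Both held 5 reads, and 1 read was worth 3.09 normalized counts in the former and 3.04 in the latter. The difference was -1.82 ± 0.62 (SE, adjusted p = 0.181, limma), and -0.92 with vehicle library 2 as the only vehicle library. In that library Acta2 and Myl9 each had 5 reads, where the level of the deep vehicle libraries would give 22.8 and 15.1.

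Tagln encodes transgelin (SM22 alpha), an actin-binding protein of smooth muscle. The reads were 237, 6 and 467 in vehicle, against 0, 1 and 1 in Nrg-1β1. The log2 values were 4.20, 4.49 and 5.01 in vehicle and 2.00, 3.19 and 2.82 in Nrg-1β1. The groups did not overlap, and Tagln had the smallest p of the 10 after Vtn (-1.90 ± 0.55, SE, adjusted p = 0.0978, limma). The difference was nearly as large, -1.83, with vehicle library 2 as the only vehicle library.

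Myh11, the smooth muscle myosin heavy chain, was read 65, 9 and 514 times in vehicle and 1, 0 and 1 times in Nrg-1β1. On the log2 scale these were 2.99, 4.99 and 5.13 in vehicle and 3.20, 2.00 and 2.82 in Nrg-1β1. As for Rgs5, vehicle library 1 lay below Nrg-1β1 library 1, and vehicle library 2 stood near library 3. The 1 read in Nrg-1β1 library 1 was worth 5.17 normalized counts, against 3.94 for the 65 reads of vehicle library 1. The difference was -1.70 ± 0.62 (SE, adjusted p = 0.221, limma).

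Des encodes desmin, the intermediate filament of muscle and of many pericytes. Vehicle gave 73, 2 and 132 reads, and Nrg-1β1 gave 0. Log2 values came to 3.07, 3.35 and 3.58 in vehicle and 2.00 in all Nrg-1β1 libraries, so the groups did not overlap. The difference was -1.33 ± 0.43 (SE, adjusted p = 0.147, limma). At the pooled vehicle level 4.46 reads would be expected in Nrg-1β1, and 0 reads allow up to 3.69 (95% exact Poisson interval), so the size of the difference is poorly bounded.

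**Figure D3:**
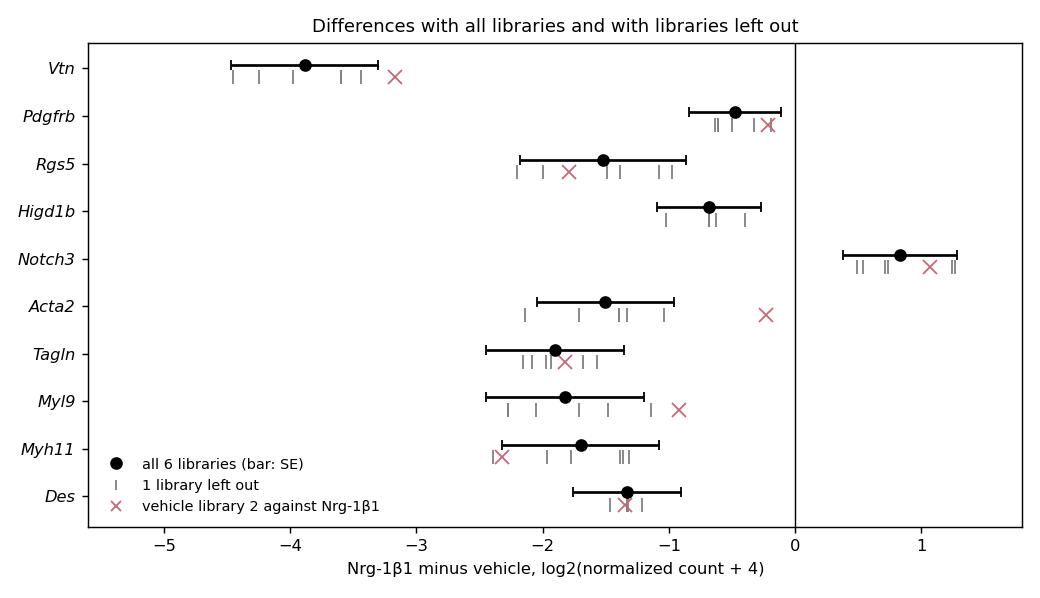
Difference between Nrg-1β1 and vehicle (log2 scale, Nrg-1β1 minus vehicle) for the 10 genes with all 6 libraries (circles, bars are SE), with each library left out in turn (ticks) and with vehicle library 2 as the only vehicle library (crosses). The cross of Acta2 sits at -0.23 against -1.50 with all libraries; Higd1b has no cross because these libraries hold 0 reads of it.

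Pdgfrb and Notch3 took a larger part of the list's reads in each Nrg-1β1 library than in any vehicle library. Pdgfrb and Notch3 together gave 34.2%, 39.0% and 29.6% of the reads of the 10 genes in vehicle libraries 1 to 3. They gave 88.1%, 82.8% and 67.9% in Nrg-1β1 libraries 1 to 3. The exact Clopper-Pearson intervals (95%) ran from 28.4% to 50.4% in vehicle library 2 and from 53.7% to 80.1% in Nrg-1β1 library 3, the closest pair of shallow libraries. Of all reads of the list, Vtn gave 24.5%, 19.5% and 27.2% in vehicle and 0%, 0% and 5.66% in Nrg-1β1, where the totals were only 42, 29 and 53 reads. This pair was picked after its values were seen, so no test is given.

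Per kilobase of annotated exon (GENCODE vM21 exon union), levels of the genes can be set beside each other in the 2 deep vehicle libraries. In library 3 Vtn was highest at 78.6 normalized counts per kilobase, followed by Myl9 at 47.1, Acta2 at 38.6, Pdgfrb at 17.9 and Tagln at 14.2. Notch3 at 9.33 and Rgs5 at 9.11 followed, then Higd1b at 6.50, Myh11 at 4.09 and Des at 2.13. In library 1 Vtn was again highest at 36.2 and Myl9 next at 33.1, while Rgs5 at 0.932 and Myh11 at 0.518 were lowest. Acta2 stood at 25.4 there, so the ranges of Vtn, Myl9 and Acta2 over the 2 libraries overlap. Those of Pdgfrb and Tagln (7.22 in library 1) overlap as well, and so do those of Notch3 (3.20), Rgs5 and Higd1b (3.50).

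The deep vehicle libraries differed from each other within 1 group. Vehicle library 3 was the highest of the 6 libraries for 9 of the 10 genes, and for Notch3 it was Nrg-1β1 library 1. The ratio of library 3 to library 1 was above 1 for all 10 genes, with a median of 1.91, against 1.02 over the 16375 genes with at least 10 reads in both. Rgs5 was 9.77 times higher in library 3 (95% exact counting interval 7.63 to 12.7) and Myh11 7.90 times (6.09 to 10.4), above 99.9% and 99.8% of those genes. Notch3 was 2.92 times and Vtn 2.17 times higher, whereas Pdgfrb reached only 1.28 (1.19 to 1.38) and Acta2 and Myl9 1.52 and 1.42. The endothelial markers had a median ratio of 3.29, the vascular fibroblast markers 2.35 and the microglia markers 0.62. The part of the vascular content of library 3 in these ratios was not tested.

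**Figure D4:**
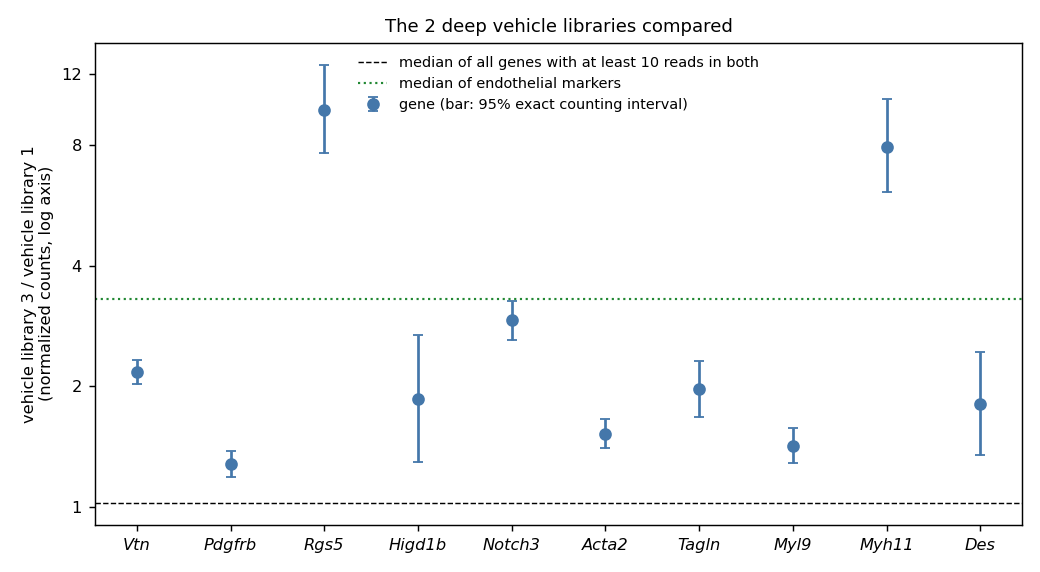
Normalized count in vehicle library 3 over vehicle library 1 for each gene (log axis, bars are 95% exact counting intervals). The dashed line is the median of all genes with at least 10 reads in both libraries (1.02) and the dotted line that of the endothelial markers (3.29); Rgs5 and Myh11 stand far above the other 8 genes.

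Among 20 further pericyte genes 0 passed the test in either direction (limma), with 5 lower and 1 higher at an unadjusted p of 0.05 and 0 called by limma-voom. Here and in the lists that follow, such unadjusted counts stand beside the 6.86% lower and 6.15% higher over all genes. Calls by limma and by limma-voom use an adjusted p of 0.05, and limma called 0.625% of all genes lower and 0.438% higher. The median difference of the 20 pericyte genes was -0.56. The transcription factor gene Foxf2, which acts in brain pericytes, had the smallest p. Its reads were 309, 9 and 873 in vehicle and 1 in each Nrg-1β1 library (-2.04 ± 0.53, SE, adjusted p = 0.067, limma). Anpep, which encodes the surface enzyme CD13, differed by -1.99 ± 0.58 (SE, adjusted p = 0.104, limma). Kcnj8, Ndufa4l2 and Foxs1 had 0 reads in Nrg-1β1, where 3.75, 5.02 and 0.603 reads would match the pooled vehicle level; they were picked after their values were seen.

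Among 22 further smooth muscle contractile and regulator genes, 0 passed in either direction (limma), with 3 lower and 0 higher at an unadjusted p of 0.05 and 0 called by limma-voom. The median difference was -0.12, and 12 were negative and 10 positive. Flna, which encodes the actin crosslinker filamin A, differed by -1.21 ± 0.38 (SE, adjusted p = 0.139, limma). Smtn, which encodes smoothelin, differed by -1.42 ± 0.52 (SE, adjusted p = 0.223, limma). Many genes of this list, such as Flna, are expressed well beyond smooth muscle.

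In the list of PDGF, Notch, TGF-β and angiopoietin signalling genes, 7 of 30 fell and 1 rose, and 22 did not pass (limma); limma-voom called 0. The median difference was -0.38. The ligand gene Pdgfb, made by endothelium and neurons, had log2 values of 6.99, 7.22 and 7.45 in vehicle and 4.28, 5.11 and 5.80 in Nrg-1β1. The groups did not overlap, and the difference was -2.15 ± 0.39 (SE, adjusted p = 0.0103, limma), while its receptor gene Pdgfrb differed by -0.48. The endothelial TGF-β coreceptor gene Eng differed by -3.18 on the log2 scale, the angiopoietin receptor family gene Tie1 by -2.78, Acvrl1 (ALK1) by -2.95 and Tgfbr2 by -1.46, all past the threshold. Tek and Tgfbr1, the other two that fell, were named after their values were seen.

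Heyl, a Notch target gene that is known in mural cells and astrocytes, was the member of that list that rose. The reads were 459, 13 and 497 in vehicle, against 30, 22 and 29 in Nrg-1β1. Log2 values came to 4.99, 5.46 and 5.09 in vehicle and 7.31, 6.86 and 6.53 in Nrg-1β1, so each Nrg-1β1 library lay above every vehicle library (1.72 ± 0.36, SE, adjusted p = 0.0247, limma). In Notch3 the highest library was Nrg-1β1 library 1, as in Heyl. The Notch ligand gene Dll4, picked after its values were seen, did not pass (-2.05, adjusted p = 0.0706, limma). It was read 72, 4 and 484 times in vehicle and 0 times in Nrg-1β1, where 12.1 would match the vehicle level.

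Of 22 vascular basement membrane and vitronectin receptor genes 1 fell, 0 rose and 21 did not pass (limma); 4 were lower and 2 higher at an unadjusted p of 0.05, and limma-voom called 0. The gene was Fn1, which encodes fibronectin, with log2 values of 7.31, 7.22 and 9.76 in vehicle and 5.13, 6.24 and 6.02 in Nrg-1β1 (-2.30 ± 0.51, SE, adjusted p = 0.0348, limma). As for the mural genes, vehicle library 3 was its highest library. The list's median was -0.57.

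Markers of endothelium, choroid plexus and microglia had lower sums in each Nrg-1β1 library than in any vehicle library. Sums of vascular fibroblast, ependymal and neuron markers overlapped between groups. The summed normalized count of the 10 mural genes was 253 to 587 in vehicle and 148 to 217 in Nrg-1β1. Sums of the 20 further pericyte genes overlapped, at 411 to 649 in vehicle and 343 to 424 in Nrg-1β1. Those of the 22 further smooth muscle genes did too, at 3693 to 3988 and 3550 to 4533. Of 18 endothelial markers 10 fell (limma), against 0.625% of all genes, and limma-voom called 0. Their sum was 1158 to 5734 in vehicle and 291 to 465 in Nrg-1β1, with 0 markers without a read in all Nrg-1β1 libraries. Of 8 choroid plexus markers 4 fell (limma; 1 lower by limma-voom), with sums of 1577 to 4924 and 158 to 237, and Kcne2 had 0 reads in Nrg-1β1. Of 10 microglia markers 6 fell (limma; 0 by limma-voom), with sums of 6337 to 9866 and 2428 to 3049. Of 12 vascular fibroblast markers 0 passed (limma; 5 lower and 1 higher at an unadjusted p of 0.05, 0 by limma-voom), with overlapping sums of 305 to 738 and 128 to 332. The part of these other cell types in the differences of the mural genes was not tested.

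Astrocyte markers had a higher sum in each Nrg-1β1 library than in any vehicle library. Of 10 astrocyte markers 0 passed (limma; 4 higher at an unadjusted p of 0.05, 0 by limma-voom), and their sums were 23792 to 35217 in vehicle and 39591 to 44678 in Nrg-1β1. Of 10 neural stem and progenitor markers 1 rose, Sox1, and 0 fell (limma; 3 lower and 1 higher at an unadjusted p of 0.05, 0 by limma-voom). The median difference of these markers was -0.67, with 6 negative and 4 positive, so most had a lower mean in Nrg-1β1. Their sums were 1001 to 1398 in vehicle and 1374 to 1592 in Nrg-1β1. All 10 progenitor markers had reads in each vehicle library, and 1 or 2 had none in each Nrg-1β1 library. Oligodendrocyte lineage markers had the highest summed level of the lists in every library, from 91697 to 188830.

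**Figure D5:**
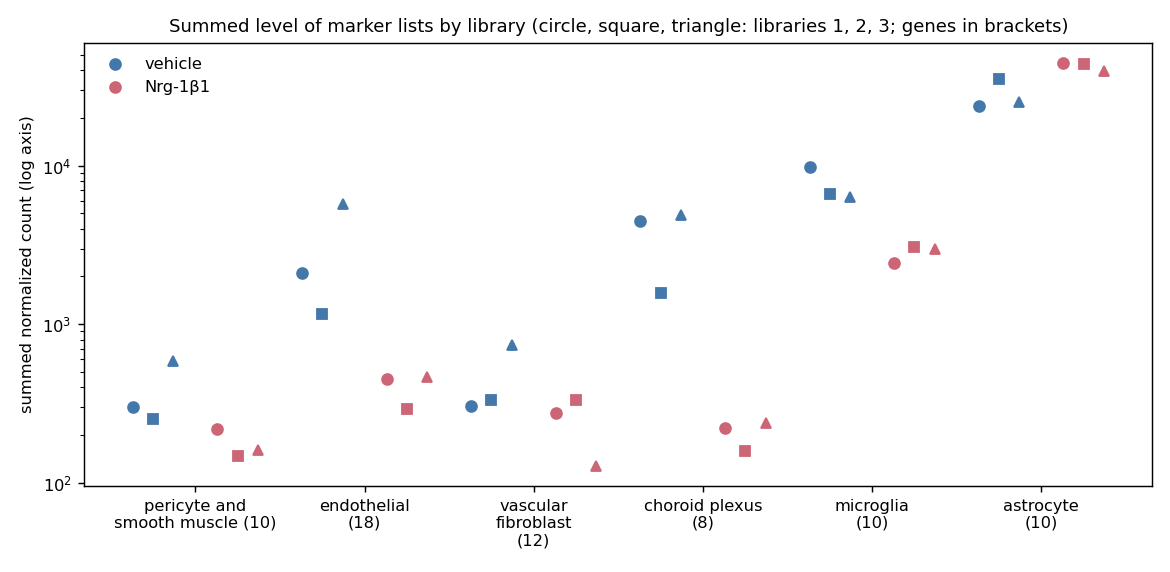
Summed normalized count of the 10 mural genes and of marker lists of other cells in each library (log axis). The sum of these 10 genes is 253 to 587 in vehicle and 148 to 217 in Nrg-1β1. The gap between groups is wider for endothelial and choroid plexus markers, and the order is reversed for astrocyte markers. Sums of the further pericyte and smooth muscle lists, not drawn, overlap between groups.

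The genes with a pattern most like the mean centred profile of the 10 genes were sought outside all lists, among 6629 genes whose normalized counts averaged 50 or more. Over the 6 libraries Pearson's r was 0.997 for Ltbp4, which encodes a TGF-β binding matrix protein, 0.995 for Zscan26, 0.992 for Uggt1 and 0.990 for Adam15. Ltbp4 had log2 values of 7.10, 7.06 and 9.05 in vehicle and 4.90, 4.88 and 5.23 in Nrg-1β1. These r describe 6 libraries that differ in depth and also make up the profile. Against the mean of the other 9 genes, r was 0.94 for Des and 0.93 for Vtn, 0.73 to 0.87 for the next 7 genes, and -0.41 for Notch3.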

How the data were processed

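Read trimming with Trimmomatic and alignment with Bowtie2 are named, per the submitters' processing notes; no version, genome build, read counter, strand setting or normalization is named there, so gene coordinates in the authors' build are left out. The authors deposited log2 values for 20323 of 27102 genes; 6779 rows hold no value. Unlogged values minus 4 are whole multiples of 1 step per library (within 0.02 reads for 100% of values), so they were read as log2(normalized count + 4); no source states this.

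Groups were compared with limma 3.58.1 (R 4.3.3), with an intensity trend on the deposited log2 values, group as the only term and Benjamini-Hochberg adjustment over all genes at 0.05. The log2(normalized count + 4) scale understates changes of genes with few reads. Pooled levels divide the summed reads of a group by its summed reads per normalized count, so the deep libraries dominate in vehicle. Intervals are 95%, exact, from scipy 1.17.1, and they cover counting error only; reads without molecular identifiers are not independent molecules. The fit was tested on simulated data. Of 1917 genes listed by number, 980 were named from RefSeq (GRCm38.p6); no other coordinates than those of its promoter table are given. Without a stated strand setting, reads of overlapping genes cannot be told apart.

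All 10 members are named; of each pathway list, the genes past the threshold (at most 6 by p) or, with none, the 2 with the smallest p. Of the genes with the most similar profile, 1 is not reported here. The members and lists (196 symbols, 194 with a value; the other two are older symbols of listed genes) were chosen with earlier results of these data known. Alternatives were other scalings, a pseudocount of 1, a filter at a mean normalized count of 50, limma-voom on recovered reads, a replicate block and left-out libraries.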

Additional observations from a re-analysis of the deposited data

How the results depend on the processing

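Over all genes 127 were lower and 89 higher as reported. With quantile normalization these were 53 and 12, 80 and 49 with a pseudocount of 1, 38 and 11 among genes averaging 50 or more normalized counts, and with limma-voom 3 and 19. Centring on library medians gave 164 and 335; it moved the median of all genes to 0.25 and that of the 10 mural genes to -1.30. With 1 library left out, 0 to 41 genes were lower, 0 to 15 higher and 0 to 1 of the mural genes lower. Without the deep libraries, and without vehicle libraries 1 and 2 (chosen after seeing the data, for their few Y-linked reads), 0 genes were lower, 0 higher and 0 mural genes lower. There a lone vehicle library is assumed to vary like the others. The 1 lower mural gene, Vtn, kept its direction in all 13 alternatives that tested it and its call in 5. Its call was lost with limma-voom, where the difference was larger but its error too (-4.36 ± 1.37, SE, adjusted p = 0.0754). The filter at 50 left only Pdgfrb and Notch3, so 0 mural genes were lower there. Each of the 10 genes kept its sign in every alternative that gave it a value; without the deep libraries Higd1b had 0 reads.

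The replicate number as a replicate block gave 342 genes lower and 285 higher, with 1 mural gene lower. Deviations of same-numbered libraries from their group means correlated at -0.27, -0.07 and -0.30. Of the 3 vehicle libraries 0 correlated best with the Nrg-1β1 library of its own number. With 3 libraries per group and unlike depths, these values cannot show whether same-numbered libraries were handled together. Depth limits Higd1b, Des and the other genes with fewer than 10 reads in Nrg-1β1, 7 of the 10 in all.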
